A study of Arabidopsis thaliana with 6 samples.

Results

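The genes described here encode proteins of the large (60S) subunit of the cytosolic ribosome of Arabidopsis thaliana. They were chosen as 60 loci for the proteins L3 to L38, each of which had to have a probe set listing that gene and no other. Of the 60 loci, 49 met this rule, out of 13286 genes measured in all, and they cover 24 of 27 proteins. Every one of the 49 was read by 1 probe set. The 11 loci without such a probe set were not analysed here. They encode L3 (AT1G61580), L6 (AT1G74050 and AT1G74060), L8 (AT4G36130), L18 (AT3G05590), L19 (AT1G02780), L24 (AT3G53020), L30 (AT3G18740), L34 (AT1G69620) and L38 (AT2G43460 and AT3G59540). Of these, 4 were listed only on probe sets that list several genes. The annotation used gives most loci no protein name, so the protein of each locus was assigned from general knowledge of the Arabidopsis gene families.

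The samples were whole Col-0 seedlings hybridised to Affymetrix ATH1 expression arrays, 3 arrays of wild type (WT) and 3 of the yaf9a yaf9b double mutant. Both genotypes were 20 days old, were grown on agar in short days without treatment, and were collected at ZT8, the end of the light period. The YAF9A and YAF9B proteins belong to the histone acetyltransferase complex NuA4 and to SWR1, which exchanges the histone variant H2A.Z into nucleosomes. The labels give no allele names and do not say how many plants each sample held.

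In plants each ribosomal protein is usually encoded by a small family of paralogs whose products are nearly alike, and a cell assembles its ribosomes from products of several of them. The large subunit forms the peptide bond and carries the tunnel through which the new protein leaves. Synthesis of ribosomal proteins takes a large share of a growing cell's resources, and their genes are widely seen to be expressed together. Mutants in single plant ribosomal protein genes are known for pointed, narrow leaves and altered leaf polarity.

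All 6 arrays were comparable in distribution, with array medians between 5.99 and 6.06 on the log2 scale and correlations across probe sets between 0.98 and 0.996. No 2 arrays held identical values. The targeted genes had 0 named probe sets, so the genotype labels were not checked through them. Genes of leaf and of root were read on the arrays. LHCB4.1, an antenna protein of photosystem II, lay between 13.5 and 13.72, and PYK10, a root beta-glucosidase, between 11.82 and 12.43. The other 2 measured root genes, the expansin genes EXPA7 (3.39 to 3.77) and EXPA18 (4.66 to 5.34), lay below the array medians. In whole seedlings, fewer cells of a type and less RNA per cell cannot be told apart.

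The 60S genes were higher in the yaf9a yaf9b mutant as a group, by modest amounts. Every one of the 49 had a log2 change above 0, from 0.06 to 0.87, against 51.1% of all 22746 probe sets. The median log2 change was 0.36 (1.28-fold), whereas that of all probe sets was 0.01. With limma and an adjusted p of 0.05 as the threshold, 24 of the 49 genes (49%) rose and 0 fell. Among all probe sets 6.52% rose and 6.61% fell by the same test. Among the 17461 probe sets at least as bright as the dimmest of the 49, 8.24% rose. That set is not matched in signal to the 49 genes, of which 42 lay at or above the 90th percentile of all probe sets. The gene with the largest rise was AT5G67510, which encodes an L26 protein of the tunnel exit.

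The rises were small in size and close to the threshold. Only 3 of the 49 genes were at least 1.5-fold higher, and 37 were at least 1.2-fold higher. Standard errors of the log2 changes ran from 0.0758 to 0.127. The smallest change that passed was 0.33 and the largest that did not was 0.44. An unadjusted limma p under 0.05 was reached by 41 of the 49 genes, all of them higher, whereas 13.3% of all probe sets were higher and 14.4% lower by that rule. In 45 of the 49 genes every mutant array lay above every WT array, compared with 15.6% of all probe sets. No gene had every mutant array below WT, compared with 15.9% of all probe sets.

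The number of genes past the threshold fell whichever array was left out, while the size of the shift changed little. Each of these fits had fewer arrays and so less power, and the share of all probe sets that rose fell too. Without WT array 2 the count was 8 and without mutant array 2 it was 6, while the share of all probe sets that rose was 3.24% and 2.45% in those fits. Without mutant array 1 it was 10 (4.26% of all) and without mutant array 3 it was 11 (6.16%). Without WT arrays 1 and 3 in turn it was 16 each time (4.77% and 4.62%). Over the 6 fits that each left out 1 array, the median log2 change stayed between 0.31 and 0.41.

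**Figure D1:**
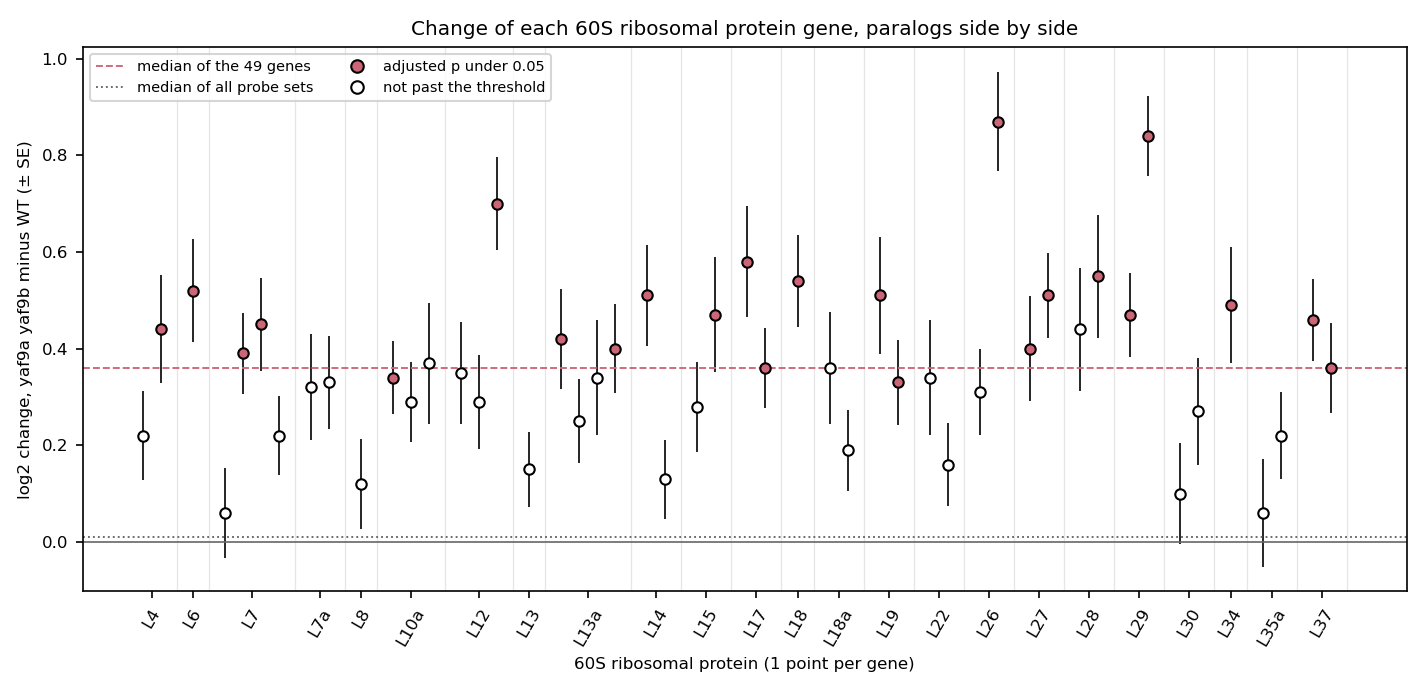
The log2 change of each of the 49 genes, yaf9a yaf9b minus WT, is plotted with its limma standard error, with genes of the same protein side by side. Filled points passed an adjusted p of 0.05. All points lie above 0, and the dashed line is their median of 0.36.

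The genes were also grouped by the place of their protein in the subunit, and no difference between the groups was tested. The counts below stand beside the 49% of all 60S genes and the 6.52% of all probe sets that rose. The proteins of the peptidyl transferase region and of the exit tunnel were measured through 7 genes. Of these 4 rose and 0 fell, with a median log2 change of 0.36. L26, which in ribosome structures sits by the mouth of the tunnel, had the gene with the largest change of all. AT5G67510 read 10.04, 9.75 and 10.06 on WT arrays 1, 2 and 3, and 10.82 on each of the mutant arrays. The genotypes did not overlap, and WT array 2 was the lowest. The log2 change was 0.87 ± 0.103 (SE, n = 3 arrays per genotype here and throughout), or 1.83-fold (limma adjusted p = 0.00301). Its paralog AT3G49910 read 12.12, 11.99 and 12.22 in WT and 12.43, 12.39 and 12.44 in the mutant. These values also did not overlap, but the change of 0.31 ± 0.0895 did not pass (limma adjusted p = 0.0587).

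L17 and L4 reach into the wall of the exit tunnel. Both L17 genes rose. AT1G27400 read 10.61, 10.19 and 10.42 in WT and 11.02, 10.99 and 10.95 in the mutant, a change of 0.58 ± 0.115 (limma adjusted p = 0.0168). WT array 2 was the lowest and the mutant arrays were close to one another. AT1G67430 changed by 0.36 ± 0.0831 (limma adjusted p = 0.0271), from 12.17 ± 0.0569 to 12.54 ± 0.0643 (mean ± SD). Of the L4 genes, AT5G02870 rose by 0.44 ± 0.112, and AT3G09630 had a change of 0.22 ± 0.092 that did not pass (limma adjusted p = 0.159). The L8 protein lies next to the peptidyl transferase centre. Its measured gene AT3G51190 gave a signal near the low end of the arrays, 3.82 to 3.98 in WT and 3.91 to 4.13 in the mutant. These ranges overlapped.

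The moving parts at the edge of the subunit were measured through 6 genes of L10a and L12, of which 2 rose and 0 fell (median log2 change 0.34). L12 forms the base of the stalk to which translation factors bind. Its gene AT5G60670 read 10.23, 9.96 and 10.18 in WT and 10.81, 10.86 and 10.79 in the mutant. The genotypes were well separated, with a change of 0.7 ± 0.0966 (1.62-fold, limma adjusted p = 0.0047). The other L12 genes, AT2G37190 and AT3G53430, had changes of 0.35 ± 0.105 and 0.29 ± 0.0977 and did not pass (limma adjusted p = 0.0636 and 0.094). L10a builds the mobile L1 stalk, through which used transfer RNA leaves. The L10a gene AT1G08360 had the smallest standard error of the 49, reading 11.14, 11.17 and 11.14 in WT and 11.49, 11.48 and 11.49 in the mutant. It rose by 0.34 ± 0.0758 (limma adjusted p = 0.0256). PGY1 (AT2G27530), whose loss enhances the leaf polarity defect of asymmetric leaves mutants, had a change of 0.29 ± 0.0824 with separate genotypes (limma adjusted p = 0.0537). The third L10a gene, AT5G22440, had a change of 0.37 ± 0.125 and a wider spread in WT (SD 0.243).

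Of the 4 measured genes for proteins that bridge to the small subunit, 2 rose and 0 fell (median log2 change 0.3). Both were L19 genes. AT3G16780 read 8.91, 8.53 and 8.91 in WT and 9.37, 9.22 and 9.29 in the mutant, a change of 0.51 ± 0.121 (limma adjusted p = 0.0303). AT4G02230 changed by 0.33 ± 0.0888, the smallest change that passed (limma adjusted p = 0.0482). L30, which in yeast also binds its own transcript, had no gene past the threshold. AT1G77940 went from 10.78 ± 0.193 to 11.06 ± 0.0351 (mean ± SD), a change of 0.27 ± 0.11 (limma adjusted p = 0.15). AT1G36240 was the dimmest of the 49 genes and its genotypes overlapped, with 3.9, 3.8 and 3.65 in WT and 4.01, 3.89 and 3.76 in the mutant.

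Of the other 32 measured genes, which encode proteins of the body and surface of the subunit, 16 rose and 0 fell (median log2 change 0.37). L29 is a short, basic protein, and both of its genes rose. AT3G06700 read 10.42, 10.32 and 10.36 in WT and 11.15, 11.27 and 11.19 in the mutant. The genotypes were far apart against the spread within each, and the change was 0.84 ± 0.082 (1.79-fold, limma adjusted p = 0.00158). AT3G06680 changed by 0.47 ± 0.0875, from 9.64 ± 0.108 to 10.11 ± 0.0153 (limma adjusted p = 0.0136).

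L28 has no counterpart in budding yeast. Its gene AT4G29410 read 10.26, 9.81 and 10.21 in WT and 10.69, 10.59 and 10.64 in the mutant, a rise of 0.55 ± 0.127 (limma adjusted p = 0.0286). The paralog AT2G19730 had a change of 0.44 ± 0.127, the largest that did not pass (limma adjusted p = 0.0581). In both genes WT array 2 was well below the other WT arrays. The one measured L18 gene, AT5G27850, read 11.13, 10.99 and 11.21 in WT and 11.6, 11.6 and 11.76 in the mutant, and rose by 0.54 ± 0.0957 (limma adjusted p = 0.0112). The one measured L6 gene, AT1G18540, read 11.32, 10.95 and 11.11 in WT and 11.65, 11.66 and 11.63 in the mutant, and rose by 0.52 ± 0.107 (limma adjusted p = 0.019). The genotypes were apart in both, and the L6 gene varied far more between WT arrays than between mutant arrays.

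L27 and L37 were further proteins for which every measured gene rose. The L27 gene AT4G15000 read 10.65, 10.49 and 10.48 in WT and 11.02, 11.02 and 11.12 in the mutant, a change of 0.51 ± 0.088 (limma adjusted p = 0.0103). Its paralog AT3G22230 changed by 0.4 ± 0.108, with the mutant arrays more scattered (SD 0.166) than those of WT (SD 0.0929). The L37 genes AT1G15250 and AT1G52300, which encode a zinc-binding protein, changed by 0.46 ± 0.0851 and 0.36 ± 0.0937. The single measured L34 gene, AT1G26880, changed by 0.49 ± 0.12.

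L7, L13a, L14 and L15 each had genes on both sides of the threshold. Of 4 L7 genes, AT2G44120 and AT2G01250 rose by 0.45 ± 0.0956 and 0.39 ± 0.083, and AT3G13580 had a change of 0.22 ± 0.081 that did not pass. The fourth, AT1G80750, read 7.8, 7.61 and 7.69 in WT and 7.82, 7.65 and 7.81 in the mutant, with overlapping genotypes and a change of 0.06 ± 0.0933. Of 4 L13a genes, AT3G07110 and AT5G48760 rose by 0.42 ± 0.103 and 0.4 ± 0.0926. The L13a genes AT4G13170 and AT3G24830 had changes of 0.34 ± 0.119 and 0.25 ± 0.0875. The L14 gene AT2G20450 read 9.15, 8.82 and 8.91 in WT and 9.47, 9.42 and 9.52 in the mutant, a rise of 0.51 ± 0.105 (limma adjusted p = 0.0188). For L15, AT4G17390 rose by 0.47 ± 0.119, and AT4G16720 had a change of 0.28 ± 0.0931.

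L7a, L13, L18a, L22 and L35a had no gene past the threshold, with 9 genes in all and log2 changes from 0.06 to 0.36. The L7a gene AT3G62870, which had the brightest probe set of the 49, went from 12.24 ± 0.142 to 12.57 ± 0.0493 without overlap (limma adjusted p = 0.0605). The L35a gene AT1G07070 read 7.91, 7.63 and 7.75 in WT and 7.86, 7.67 and 7.95 in the mutant, and its genotypes overlapped.

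**Figure D2:**
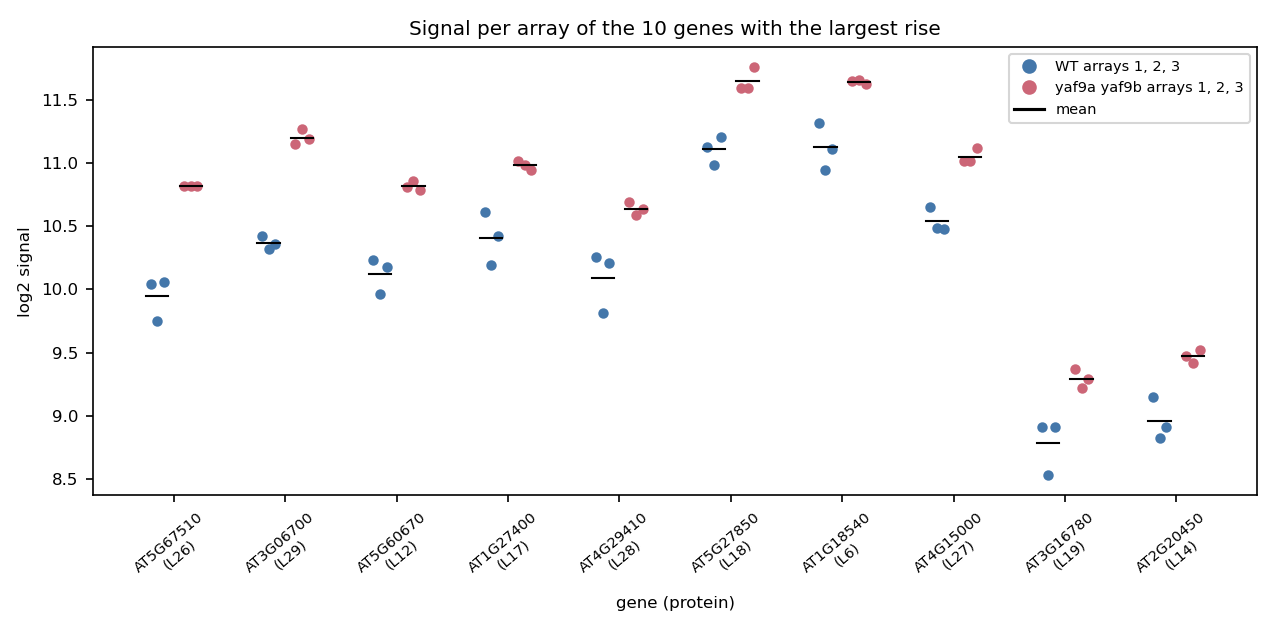
The log2 signal on each array is shown for the 10 genes with the largest rise past the threshold, WT to the left and yaf9a yaf9b to the right of each gene, with bars at the means. In every gene shown the mutant arrays lie above the WT arrays, and the mutant arrays of AT5G67510 all read 10.82.

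The 4 genes whose genotypes overlapped were AT1G36240, AT3G51190, AT1G80750 and AT1G07070, and these were also the 4 with the lowest mean signal, 3.83, 3.96, 7.73 and 7.8. All other genes read at least 8.53 on average. Signals of different probe sets depend on the probes and are not read here as transcript levels, and the files used hold no detection calls. Of the 49 probe sets, 42 were at or above the 90th percentile of mean signal over all probe sets, and the lowest lay at percentile 23.3. When the genes were ordered by signal, 9 of the 17 dimmest, 8 of the 16 in the middle and 7 of the 16 brightest rose, with median changes of 0.4, 0.32 and 0.36. Across the 49 genes signal and change had a Pearson r of 0.28 and a Spearman rho of 0.04. This is a description over genes that share the same 6 arrays.

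**Figure D3:**
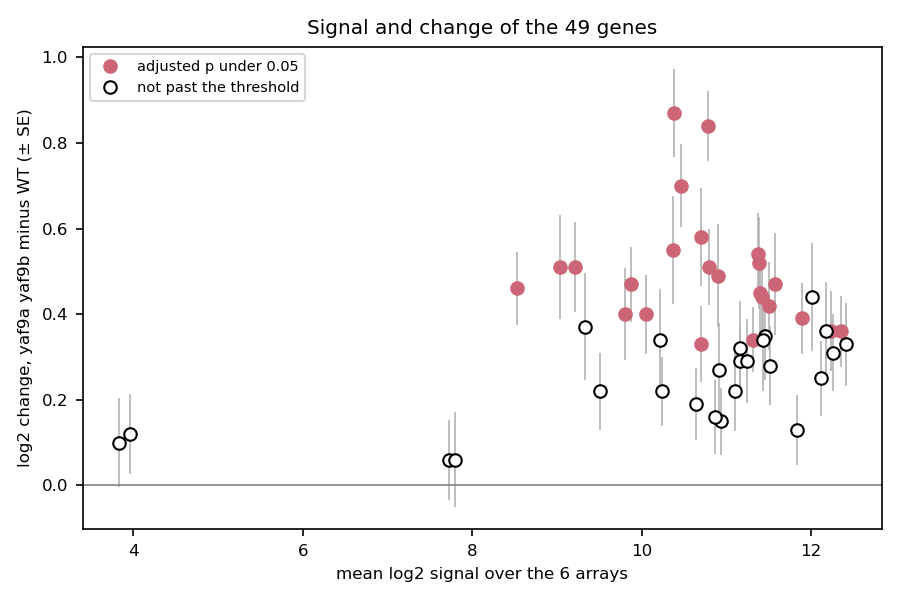
The log2 change of each of the 49 genes (± SE) is plotted against its mean log2 signal over the 6 arrays. The 4 genes with a mean signal under 8 have changes of 0.06 to 0.12, and filled points, which passed an adjusted p of 0.05, occur only from a mean signal of 8.53 upwards.

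Paralogs of the same protein were compared through their ratio within each array, which shows unequal change between the genes and says nothing of their relative levels. There were 33 pairs over 19 proteins with at least 2 measured genes. For 5 of these proteins every measured gene rose (L17, L19, L27, L29 and L37), for 9 only some passed, and for 5 none passed. A gene that passed and a paralog that did not are not thereby shown to differ. In 15 of 33 pairs (45.5%) the ratios of the mutant arrays did not overlap those of WT, against 39.2% of the 1143 pairs that join genes of unlike proteins. The median absolute difference in log2 change was 0.167 between paralogs and 0.157 between unlike proteins. Both measures were thus close for paralogs and for genes of unlike proteins, and the difference between the kinds of pair was not tested.

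The pair with the largest difference was that of L26. The log2 ratio of AT5G67510 to AT3G49910 was -2.08, -2.24 and -2.16 in WT and -1.61, -1.57 and -1.62 in the mutant, a difference in change of 0.56 ± 0.0486 (SE). For L12, AT5G60670 exceeded AT3G53430 in change by 0.41 ± 0.0696 and AT2G37190 by 0.34 ± 0.0993. For L7, AT1G80750 changed less than AT2G44120 by 0.39 ± 0.0834 and less than AT2G01250 by 0.33 ± 0.0429. For L14, AT2G20450 exceeded AT4G27090 by 0.38 ± 0.113. The change of AT4G27090 itself was 0.13 ± 0.0817. For L29, AT3G06700 exceeded AT3G06680 by 0.37 ± 0.0587. In each of these pairs the ratios of the genotypes did not overlap, and the exact two-sided permutation test gave p = 0.1, the smallest value that 3 arrays against 3 allow.

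Other paralogs kept nearly the same ratio. The L7a genes differed in change by 0.01 ± 0.0528, and the L10a genes AT1G08360 and AT2G27530 by 0.04 ± 0.0564. In 11 of 33 pairs the difference was under 0.1, and in 23 it was under 0.2. With the standard errors of these differences, which reach 0.182 for the L22 pair, differences of that size could not be resolved in every pair.

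**Figure D4:**
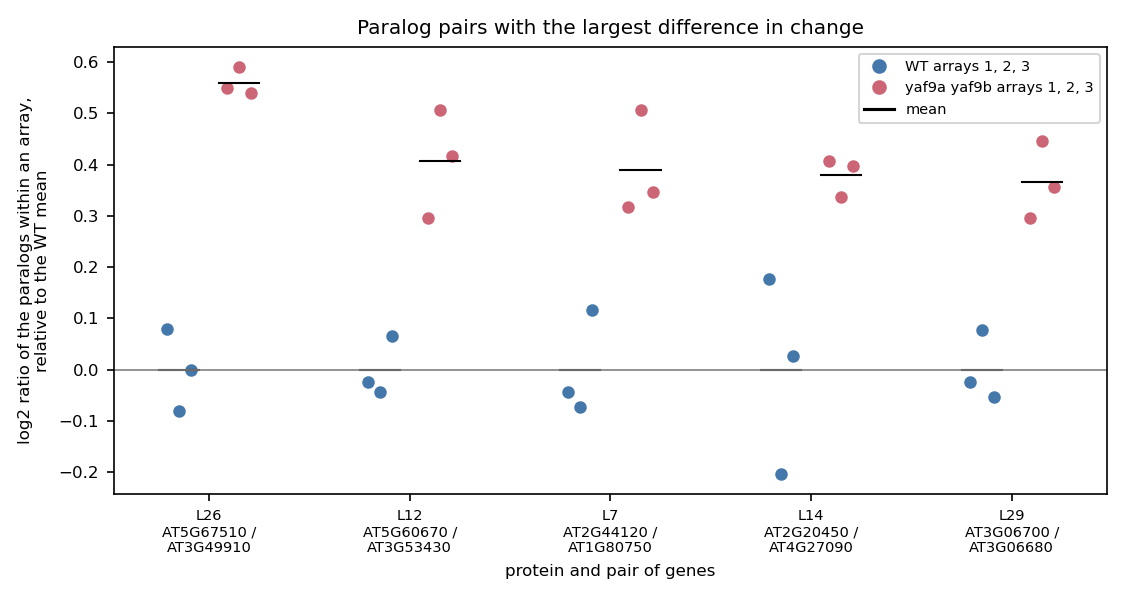
For the pair with the largest difference in change of each of 5 proteins, the log2 ratio of the paralogs within each array is shown relative to its mean in WT, with bars at the means. The gene with the larger change comes first in each ratio, so the mutant mean lies above that of WT by construction. The arrays of the genotypes do not overlap in any of the 5, and mean differences run from 0.37 for L29 to 0.56 for L26.

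Most of the 60S genes also read lowest on the same WT array. Relative to each gene's mean over the 6 arrays, their median level was -0.1, -0.28 and -0.13 on WT arrays 1, 2 and 3, and 0.21, 0.15 and 0.17 on mutant arrays 1, 2 and 3. WT array 2 was the lowest of the 6 arrays for 38 of the 49 genes, and it was the lowest WT array for 77.6% of them, against 39.2% of all probe sets. The 40S genes shared the low WT array 2, which was the lowest WT array for 72.3% of them. Their median levels were -0.12, -0.26 and -0.12 on WT arrays 1, 2 and 3. The highest of the 6 arrays was mutant array 1 for 22 genes, mutant array 3 for 14 and mutant array 2 for 13. The lowest and highest of the 6 arrays were not counted over all probe sets, so these counts have no share to stand beside. The spread between WT arrays was wider than that between mutant arrays for 38 of the 49 genes (77.6%), compared with 78.7% of the 40S genes and 55.4% of all probe sets. The median SD of the 49 genes was 0.125 in WT and 0.0551 in the mutant, where all probe sets had medians of 0.127 and 0.11. Genes that share 3 arrays per genotype are not independent observations of this spread.

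The genes lie on all 5 chromosomes, and the median log2 change ran from 0.32 over the 14 genes of chromosome 3 to 0.42 over the 8 genes of chromosome 5.

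Other genes of the translation machinery were read from lists of loci for comparison, which, like the marker lists below, were compiled from general knowledge. In the same test 6.52% of all probe sets rose. Of 47 measured genes for proteins of the small (40S) subunit, of 93 listed, 22 rose and 0 fell, with a median log2 change of 0.35. Leaving out 1 array in turn gave 5 to 16 risen 40S genes, the fewest without mutant array 2, with 8 without WT array 2, 11 without mutant array 1 and 12 without mutant array 3. AT1G23410, a gene for S27a that is made fused to ubiquitin, rose most clearly, by 1.53 ± 0.123 (limma adjusted p = 0.00079), and AT3G53890, for S21, by 0.71 ± 0.0876 (limma adjusted p = 0.00354). Of the 14 genes for the P-stalk proteins, which project from a base that L12 helps to form, 6 rose and 0 fell (median 0.3). Leaving out 1 array gave 1 to 4 risen P-stalk genes, with 1 without WT arrays 2 or 3 or mutant array 2, 2 without mutant array 1 and 3 without mutant array 3. Among them AT5G57290, for P3, rose by 0.61 ± 0.0888 (limma adjusted p = 0.00561) and AT2G27710, for P2, by 0.54 ± 0.117 (limma adjusted p = 0.0229). These medians lay close to the 0.36 of the 60S genes, and no difference between the lists was tested.

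The other 3 lists held 0 genes past the adjusted threshold, by which 6.52% of all probe sets rose. Of 10 measured ribosome biogenesis factors, of 31 listed, 0 passed limma's adjusted threshold in either direction, with changes from -0.18 to 0.51 and a median of 0.18. Without adjustment, 4 had a limma p under 0.05 and a positive change, and 0 a negative one. By that rule 13.3% of all probe sets were higher and 14.4% lower. Of 3 measured translation factors, of 24 listed, 0 passed limma's adjusted threshold and 1 was higher at an unadjusted p of 0.05 (median -0.02). Of 9 measured nuclear genes for plastid ribosomal proteins, of 33 listed, 0 passed limma's adjusted threshold and 0 an unadjusted p of 0.05, with changes from -0.13 to 0.06. All 3 lists held few measured genes, so a count of 0 lies near the share of all probe sets and does not set them apart.

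**Figure D5:**
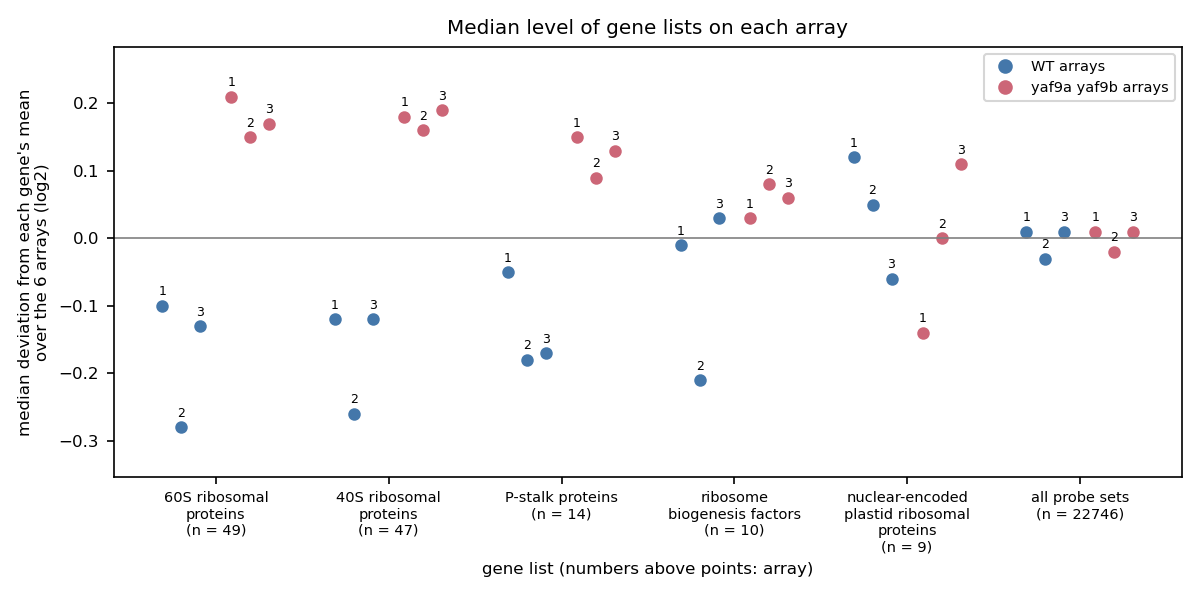
For each list, the median over its genes of the deviation from the gene's mean over the 6 arrays is plotted per array on the log2 scale, with array numbers above the points. WT and mutant arrays are apart for the 60S, 40S and P-stalk genes, and overlap for nuclear-encoded plastid ribosomal proteins. For ribosome biogenesis factors WT array 3 and mutant array 1 both read 0.03, with the other WT arrays below and the other mutant arrays above. All probe sets stay within 0.03 of 0.

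Markers of cell types that a seedling could hold in other proportions were read beside these results. Of the 17 listed genes of dividing cells, 3 were measured and 0 passed: AUR1 and AUR2, which encode mitotic kinases, had changes of 0.24 ± 0.128 and -0.16 ± 0.131, and PRL, a replication licensing factor, 0.02 ± 0.0862. At an unadjusted limma p of 0.05, 0 of the 3 were higher or lower. On the log2 scale their summed signal lay between 8.29 and 8.4 in WT and between 8.32 and 8.5 in the mutant. Of the 5 root genes, 3 were measured and 0 passed limma's adjusted threshold or an unadjusted p of 0.05, with summed signals of 12.18 to 12.44 in WT and 11.83 to 12.37 in the mutant. That sum is nearly all PYK10. Of the 18 leaf mesophyll genes, 2 were measured. LHCB4.2, another antenna gene, fell, with a log2 change of -0.33 ± 0.0876 (limma adjusted p = 0.0434). The other, LHCB4.1, had a change of -0.07 ± 0.0841 with overlapping genotypes (limma adjusted p = 0.642). Among all probe sets 6.52% rose and 6.61% fell past the adjusted threshold. At an unadjusted limma p of 0.05, 13.3% were higher and 14.4% lower. With so few genes measured, the counts of these marker lists do not set them apart from all probe sets. The summed mesophyll signal was 14.41 to 14.54 in WT and 14.22 to 14.33 in the mutant. The part of tissue proportions in the change of the 60S genes was not tested.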

How the data were processed

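The deposited log2 values, 1 column per array, were made by the authors with RMA in the affy package, per the submitters' processing notes; versions were not given there. RMA equalises the distributions of arrays, so a change common to most transcripts is lost. No batch or scan date was given, so none was tested.

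After 64 control probe sets were removed, 22746 were fitted with limma 3.58.1 (R 4.3.3; lmFit, eBayes, two-sided tests, no filter), with Benjamini-Hochberg adjustment over all of them. The fit was also run on simulated data with 22746 independent probe sets, few of them changed. It called 22.9% of 70 log2 changes of 0.5, 70% of 60 changes of 1 and 97.1% of 70 changes of 2. Of 131 calls 5 were false. The real data gave 2985 calls. With fewer changed probe sets the adjustment is stricter, so the simulated shares are not the sensitivity of the real comparison. Names came from GEO's platform annotation and the RefSeq table of TAIR10.1: 13513 probe sets listed 1 gene (13436 matched by gene ID), 503 several and 8730 none. A gene with several probe sets took the brightest. The paralog ratio is the difference of log2 signals within an array, tested by exact permutation of the 6 arrays.

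The members and lists were chosen with earlier results of these data known. The naming rule took the 10 largest rises, genes with a change under 0 (0 were found), the 4 brightest and 4 dimmest, each protein's widest pair among the 8 widest, and up to 2 passing genes per comparison list by p. Other genes were named with their values in view. The alternatives are listed with their effect in the closing section. That replicates are biological comes from the series' design text.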

Additional observations from a re-analysis of the deposited data

How the results depend on the processing

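The median log2 change of the 60S genes was 0.3 after cyclic loess, 0.39 after median centring and 0.31 to 0.41 leaving out 1 array. The count of 24 risen genes stayed within 1.5 times, at 17 to 30, after cyclic loess, median centring, a trended variance, array weights, both filters and the mean per gene, and 0 genes fell in any alternative run. In the fits that gave 17 to 30, the share of all probe sets or genes that rose ran from 5.77% to 10.2%. The lowest share was with the mean per gene and the highest with dim probe sets left out. Each 60S gene was read by 1 probe set, whose name did not end in _s_at or _x_at. The mean per gene and the filter on those name endings thus left the values of the 60S genes unchanged. Only the variance shared over probe sets and the adjustment could move their calls, so these settings say little of the 60S count. With a replicate block, 7 of the 60S, 6 of the 40S and 1 of the P-stalk genes rose, with 3.05% of all probe sets. Deviations of same-numbered WT and mutant arrays correlated at -0.21, 0.01 and -0.32, and 0 arrays correlated best with their own number. With 3 arrays per genotype, these correlations cannot show whether same-numbered samples were grown or processed together. The labels do not say so either. With a 1.2-fold minimum change, 3 of the 60S, 3 of the 40S and 0 of the P-stalk genes rose, with 1.64% of all probe sets. That test asks whether a change exceeds 1.2-fold. An estimate of at least 1.2-fold was found for 37 of the 60S genes, but only 3 were shown to exceed it. Array weights gave 1 risen ribosome biogenesis factor, and the cause was not tested. Leaving out 1 array gave 6 to 16 risen 60S genes (8 without WT array 2, 6 without mutant array 2). It gave 5 to 16 of the 40S and 1 to 4 of the P-stalk list, with fewer arrays in each fit. Paralog ratios did not overlap between genotypes in 15 to 20 of the 33 pairs. With fewer arrays this is easier to reach, and no share for pairs of unlike proteins is given for these fits. The counts thus do not show that unequal change holds.

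Of the 24 risen genes, 3 kept the call in all 15 alternatives: AT5G67510, AT3G06700 and AT5G60670. Another 3 kept it whichever array was left out, namely AT1G15250, AT4G15000 and AT5G27850, and lost it only with the minimum change. The other 18 lost it without at least 1 array. In 730 of 733 comparisons of a member with an alternative the change kept its direction. The exceptions were uncalled genes: AT1G80750 (-0.01) and AT1G07070 (-0.04) with array weights, and AT1G07070 leaving out 1 array, where its change ran from 0 (rounded, without WT array 2) to 0.14 (without WT array 1). The cause was not tested. The array weights ranged from 0.61 for WT array 3 to 2.72 for mutant array 2.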
